A study of Arabidopsis thaliana with 12 samples.

Results

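NAC genes code for plant transcription factors that share an N-terminal DNA-binding domain, and the 53 expressed members described here were taken from RNA-sequencing of Arabidopsis seedlings exposed to hypoxia, to the bacterial peptide flg22, or to both. The rows of the read count table whose symbol reads NAC or ANAC followed by a number were collected, which gave 69 of 23396 genes. Members with a mean read count of at least 10 over the 12 samples were kept, and the other 16 had means of 0.5 to 9.67 counts. Just inside this minimum lay NAC070 (11.5 counts), and just outside it lay NAC101 and ANAC026 (9.67 counts each), NAC097 (9.5 counts) and NAC015 (9.25 counts). The rule used no difference between groups. All 53 members passed the filter on low counts and entered the tests. NAC061 and NAC090 reached the minimum only through the samples that received flg22, with mean counts of 33.3 and 108 there, against 0.167 and 4.0 in the mock samples. The edgeR counts of DEGs among all members are therefore also given without both.

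Whole wild-type Col-0 seedlings formed 4 groups of 3 biological replicates. They were hypoxia/flg22 (HF), hypoxia/mock (HM), normoxia/flg22 (NF) and normoxia/mock (NM). The flg22 peptide, a piece of bacterial flagellin, was given at 100 nM and mock seedlings received water, while hypoxia was imposed in anaerojars and normoxia was ambient air. All seedlings were grown in continuous light, were 10 days old, were pooled by 5 into a sample and were harvested after 1 h. Shoots and roots were not separated, so that fewer cells of a type and less RNA per cell cannot be told apart in these data.

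Several NAC proteins are known from abscisic acid, jasmonate and senescence programmes, others carry a hydrophobic C-terminal segment that anchors them to a membrane until they are released under stress, and others again control cell wall, vessel and meristem development. Many NAC genes are themselves switched at the level of transcription, so that their own RNA is a common readout of stress. In immunity, the receptor kinase FLS2 recognizes flg22 and triggers transcription within minutes, often through WRKY factors that bind TTGAC and CAMTA factors that bind CGCG.

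The promoters of 4 of the 5 members that were DEGs in NF vs NM are shown to compare the closest pair among them, NAC061 and NAC090, with NAC062 and NAC042. Each is the 250 bases before the annotated start of the gene in RefSeq TAIR10.1, written 5′ to 3′ on the strand of the gene, with TTGAC and CGCG in capitals on either strand (GTCAA is TTGAC on the other strand). Their positions are chr3:16024520-16024769 (NAC061), chr5:7410103-7410352 (NAC090), chr3:18364960-18365209 (NAC062) and chr2:17882637-17882886 (NAC042), each on the minus strand.
NAC061: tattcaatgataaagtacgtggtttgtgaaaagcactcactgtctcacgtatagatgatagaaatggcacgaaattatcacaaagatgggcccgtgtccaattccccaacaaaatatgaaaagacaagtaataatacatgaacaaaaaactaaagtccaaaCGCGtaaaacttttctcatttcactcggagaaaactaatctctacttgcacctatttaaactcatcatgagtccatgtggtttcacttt
NAC090: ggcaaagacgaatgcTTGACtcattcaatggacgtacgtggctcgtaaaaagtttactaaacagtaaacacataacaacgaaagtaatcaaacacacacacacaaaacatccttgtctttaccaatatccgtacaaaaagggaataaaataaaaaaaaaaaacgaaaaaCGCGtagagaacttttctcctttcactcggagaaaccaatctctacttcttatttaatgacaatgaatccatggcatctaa
NAC062: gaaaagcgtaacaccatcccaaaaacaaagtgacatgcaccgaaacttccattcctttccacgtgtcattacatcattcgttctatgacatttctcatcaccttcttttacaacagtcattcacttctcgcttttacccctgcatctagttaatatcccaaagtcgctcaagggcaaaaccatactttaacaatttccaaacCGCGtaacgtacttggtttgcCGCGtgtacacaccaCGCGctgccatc
NAC042: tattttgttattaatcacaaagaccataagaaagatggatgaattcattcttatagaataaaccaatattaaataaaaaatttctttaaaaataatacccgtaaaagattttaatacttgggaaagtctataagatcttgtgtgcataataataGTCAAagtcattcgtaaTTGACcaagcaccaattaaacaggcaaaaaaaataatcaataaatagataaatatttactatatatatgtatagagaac

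The NAC061 and NAC090 windows both held CGCG, 89 and 81 bases before the start. A local alignment paired 105 of their bases, of which 93 were identical, and both held the run tttcactcggagaaa close to the CGCG. This alignment had 17 gap positions and a score of 89.0, and such likeness was not particular to this pair. The windows of NAC080 and NAC100 scored 118, and those of NAC048 with NAC003 and of NAC046 with ANAC087 scored 91.0 each. In no comparison were both genes of any of these other pairs DEGs in edgeR's fit. NAC062 held CGCG at 3 places within 48 bases of its start, and NAC042 held TTGAC at 2 places and no CGCG. Over the family, CGCG stood in 9 of 53 windows (17.0%), against 10.1% of 27437 protein-coding genes with the same window, and TTGAC stood in 18 (34.0%, against 44.9% of all). The other motifs searched on both strands were CACGTG, the G-box, in 5 members (9.43%, against 6.49% of all), and the mitochondrial dysfunction motif, a longer element with variable bases, in 4 members (7.55%, against 1.75% of all). Overlaps between motifs were not removed, and these matches describe letters only.

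Total counts were close to each other, at 21307650 to 21554050 per sample, and levels are given as CPM, the counts relative to the TMM-scaled library size. Genes are called DEGs where edgeR's quasi-likelihood test gave a p-value under 0.05 after Benjamini-Hochberg adjustment and the fold change exceeded 1.5 in either direction, and fold changes are given as log2FC. Shoot markers (RBCS1A, LHCB1.1 and RBCS3B) summed to 21110 to 33530 CPM per sample. Root markers (EXPA7, PIN2 and PHT1;1) summed to 109 to 256 CPM, so that RNA of both organs was detected in all 12. In each group replicate 1 had the highest root sum (225 to 256 CPM, against 109 to 167 CPM in replicates 2 and 3). It also had the lowest shoot sum of each group (21110 to 26890 CPM, against 25740 to 33530 CPM). PHT1;1 made up most of the root sum (219 of 236 CPM in HF replicate 1). PHT1;1 and RBCS1A kept this order in each group, and the other markers did not. PIN2 was lowest in HF replicate 1 (14.6 CPM, against 20.2 and 17.7), and EXPA7 was higher in NF replicate 2 than in NF replicate 1. LHCB1.1 was lower in HF replicate 2, and RBCS3B in NM replicate 3, than in replicate 1. Hypoxia markers (ADH1, PDC1 and LBD41) summed to 1090 to 3190 CPM in HF and 377 to 1320 CPM in HM, against 53.2 to 170 CPM in NF and 29.0 to 36.2 CPM in NM. The flg22 markers (FRK1, CYP81F2 and WRKY33) summed to 2474 to 3104 CPM in HF and 1299 to 3135 CPM in NF, against 48.0 to 154 CPM in NM. HM replicate 1 stood apart from its group, with an flg22 marker sum of 1002 CPM, against 101 and 276 CPM in HM replicates 2 and 3. FRK1 and WRKY33 alone did not separate flg22 from mock samples. FRK1 had 38.2 CPM in NM replicate 3, and WRKY33 had 647 CPM in HM replicate 1, against 635 CPM in NF replicate 1. CYP81F2 did, with at least 661.5 CPM in flg22 samples and at most 351.9 CPM in mock samples. Hypoxia and normoxia samples were each separated by ADH1 (at least 35.1 CPM, against at most 15.3 CPM), PDC1 (35.95 against 7.82) and LBD41 (306 against 155). HM replicate 1 was at least 1.5 times the higher of the other HM samples for 7 members (NAC036, NAC042, NAC062, NAC070, NAC090, NAC102 and NAC103, or 13.2%, against 17.5% of all genes). The part of this library in results that involve HM was not tested beyond giving values without it.

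The NAC family was dominated by a few genes. Per kilobase of the longest transcript, NAC102, which belongs to the ATAF clade and is known from the germination of seeds under low oxygen, had the highest mean level (204 CPM per kb over all samples), and its mean was the highest of these 5 members in each group. NAC082, known from the response to ribosomal stress, had 49.2 CPM per kb, ANAC055, a factor of jasmonate and abscisic acid signalling, had 45.2, NAC083 had 31.4 and NAC062 had 31.0 CPM per kb, also over all samples. The median over the members was 4.25 CPM per kb, 13 members lay above 10 CPM per kb and 13 below 1 CPM per kb. The order after NAC102 differed between groups. In HF ANAC055 (76.1 ± 22.9 CPM per kb, SD, n = 3) had a higher mean than NAC082 (55.3 ± 7.94), NAC062 (51.7 ± 5.85) and NAC083 (17.6 ± 4.06). In NM NAC083 (51.6 ± 3.64 CPM per kb, SD, n = 3) had a higher mean than NAC082 (43.6 ± 5.45), ANAC055 (24.8 ± 13.2) and NAC062 (7.81 ± 0.735).

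Summed over the 53 members, NAC RNA reached 1325, 1496 and 1279 CPM in the HF samples, against 602, 866 and 958 CPM in the NM samples. It was 897, 1017 and 975 CPM in HM and 799, 1277 and 1408 CPM in NF. The HF samples were all above the NM samples, whereas NF replicate 1 lay within the NM range. NAC102 alone made up 30.7 to 39.4% of this sum in HF, 13.0 to 27.7% in HM, 19.8 to 35.2% in NF and 8.85 to 19.6% in NM.

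**Figure D1:**
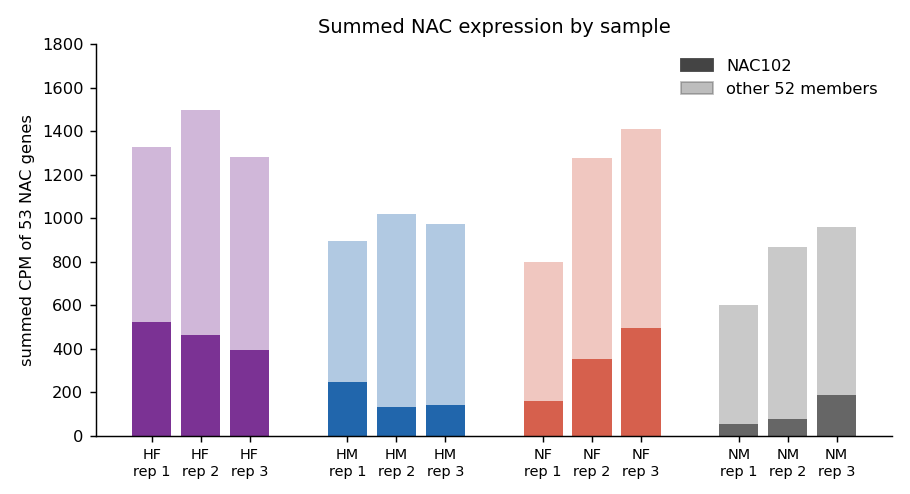
Summed expression of 53 NAC genes in each sample, in CPM on a linear axis from 0, with NAC102 as the dark part of each bar and the other 52 members as the pale part. The HF bars reach 1279 to 1496 CPM and the NM bars 602 to 958 CPM.

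Across the 4 groups, the mean was highest in HF for 18 members (34.0%, against 22.4% of all genes tested), in NF for 17 (32.1%, against 25.5%), in HM for 9 (17.0%, against 27.2%) and in NM for 9 (17.0%, against 25.0%). The median log2FC of the members was 0.27 in HF vs NM, against -0.05 over all 20074 genes tested, and became -0.02 against -0.32 with scaling by library size only, so that the sign of the members' median depended on the scaling and its place above all genes did not. In HM vs NM the members' median was 0.19, against 0.01 over all genes, and in NF vs NM it was 0.22, against -0.03 over all genes. The 3 comparisons share the NM samples.

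**Figure D2:**
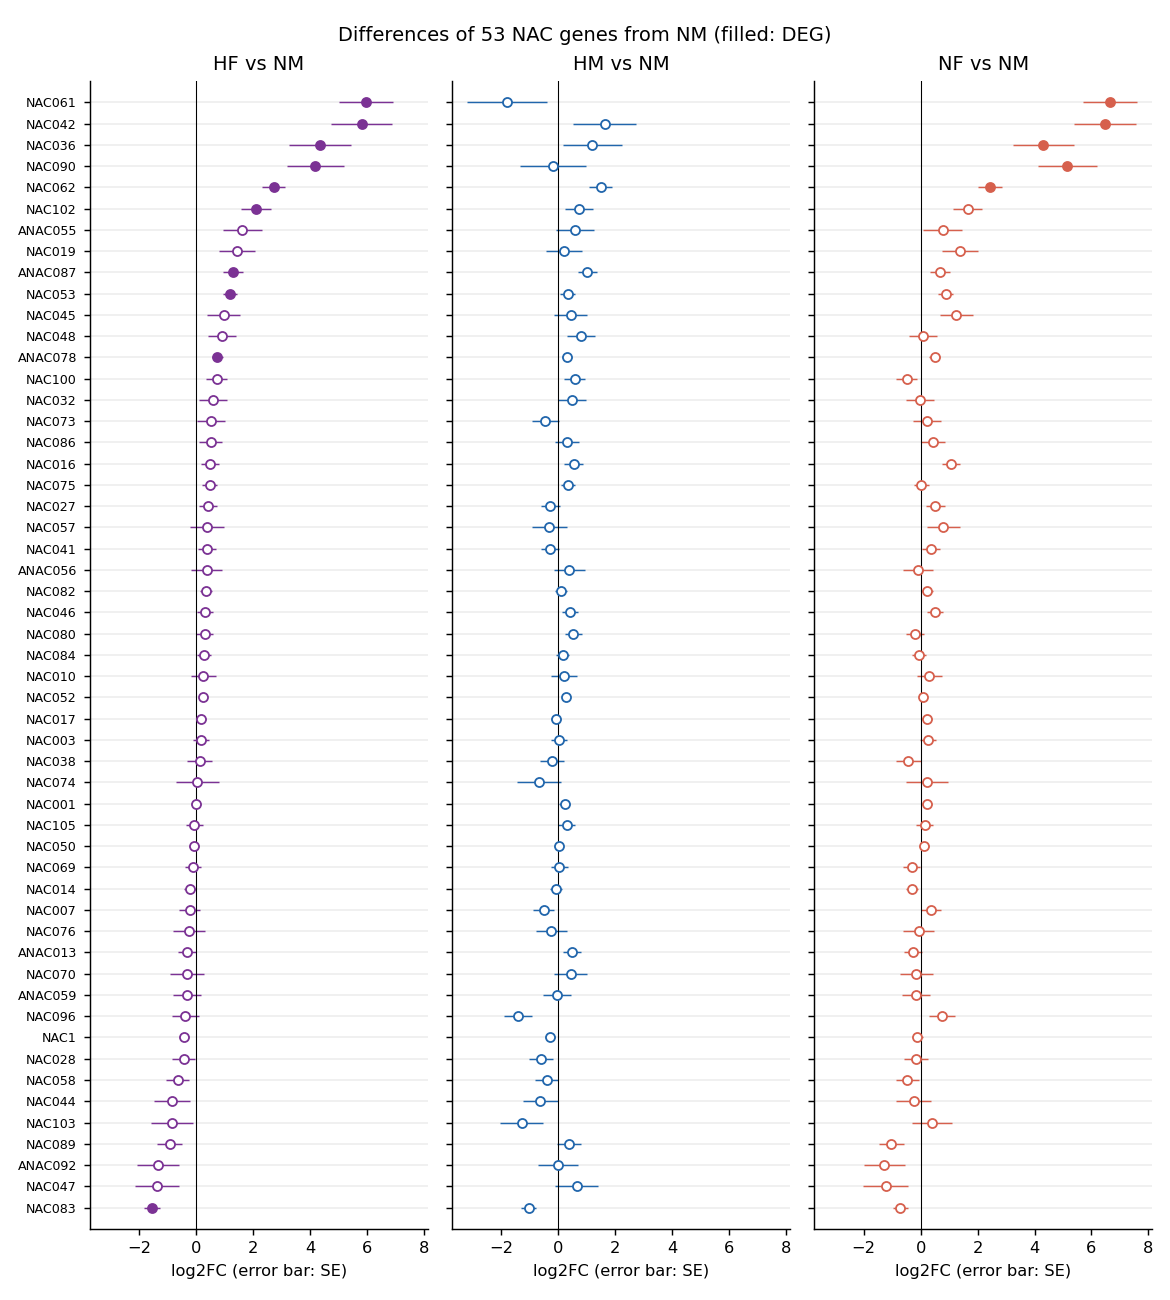
Log2FC of 53 NAC genes in HF vs NM, HM vs NM and NF vs NM, ordered by HF vs NM, with SE as error bars and DEGs as filled points. In HF vs NM 9 genes are DEGs on the right and NAC083 is a DEG on the left, in HM vs NM no point is filled, and in NF vs NM 5 are. The values of NAC061 are fitted against groups with at most 1 count and carry no fold.

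To see which members responded to the combined treatment, HF was compared with NM. A total of 10 of the 53 members (18.9%) were DEGs, against 10.4% of all genes tested, and 8 of 51 (15.7%) without NAC061 and NAC090. NAC061, NAC042, NAC036, NAC090, NAC062, NAC102, ANAC087, NAC053 and ANAC078 were upregulated (7.85% of all genes were upregulated) and NAC083 was downregulated (2.59% of all genes). The HF and NM samples did not overlap for 23 members (43.4%, against 27.2% of all genes), 19 of them higher in HF (35.8%, against 14.8%) and 4 lower (7.55%, against 12.4%). By role, 5 of 11 members of the senescence, reactive oxygen and defence list were upregulated and 1 downregulated, as were 3 and 0 of 10 membrane-tethered members and 1 and 0 of 6 members of the ATAF and NAP clades. The 5 include NAC061 and NAC090, which met the count minimum only through the flg22 samples. The count of DEGs was 6 without HF replicate 2, HF replicate 3 or NM replicate 3, and 5 without NM replicate 1 or NM replicate 2. Whether members lost calls more often than other genes in these smaller fits was not tested. None of the 7 members known from secondary walls, vessels and phloem, the 2 from DNA damage and ER stress, the 2 from meristem and root cap, or the 15 outside these lists was a DEG. In these 4 lists together, the lowest and highest log2FC were -0.84 and 0.97.

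**Figure D3:**
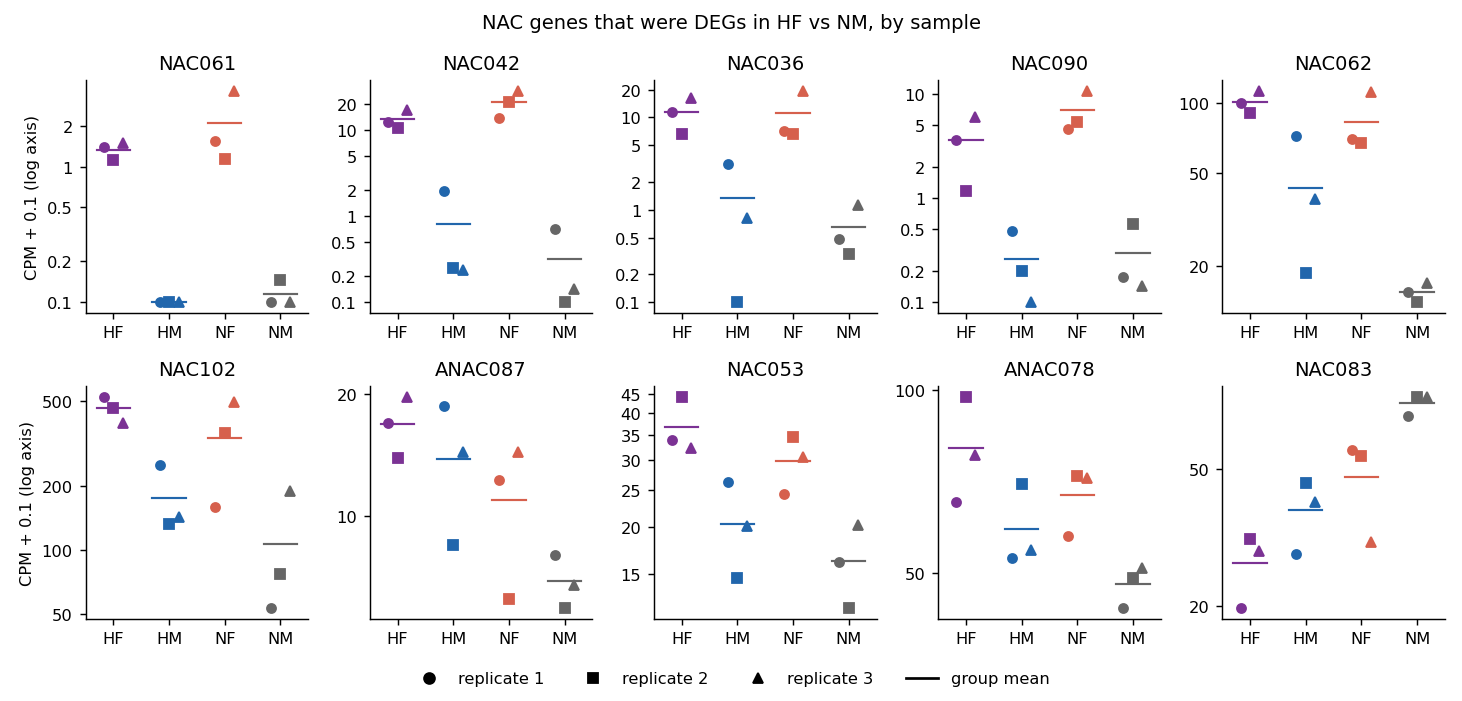
CPM of the 10 NAC genes that were DEGs in HF vs NM, in every sample, on a log axis after adding 0.1. Symbols stand for replicates and lines for group means, and each panel has its own scale. The HF samples lie above the NM samples in 9 panels and below them for NAC083.

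NAC061 (AT3G44350) and NAC090 (AT5G22380) are each other's closest relatives among the members, with 66.4% identity of their proteins, and NAC090 is known as a negative regulator of leaf senescence. NAC061 had 1.30, 1.02 and 1.39 CPM in HF (26, 18 and 29 counts), against 0, 0.0465 and 0 CPM in NM (0, 1 and 0 counts). It had 1.44, 1.03 and 3.54 CPM in NF and no count in any HM sample. Only 1 of its counts came from a mock sample. The ratio of HF to NM was 88.9 (95% interval for counting error 15.5 to 3560, from a single NM count), with an adjusted p of 0.00469 in edgeR's fit, and that of NF to NM was 141 (24.9 to 5620) with an adjusted p of 0.0037. HF exceeded HM at least 27.2-fold, taking 3 counts over the 3 HM libraries as the floor (0.0458 CPM), with an adjusted p of 0.013 in edgeR's fit.

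NAC090 had 3.5, 1.08 and 6.0 CPM in HF, against 0.0755, 0.465 and 0.0431 CPM in NM. It had 0.386, 0.1 and 0 CPM in HM and 4.53, 5.36 and 10.7 CPM in NF. The flg22 samples lay above all mock samples, with HF replicate 2 the lowest of them. The log2FC was 4.19 ± 1.01 (SE) in HF vs NM (adjusted p = 0.0226, edgeR) and 5.15 ± 1.04 in NF vs NM (adjusted p = 0.0109, edgeR). In HF vs NM the adjusted p was 0.0731 without HF replicate 3, 0.0723 without NM replicate 1 and 0.0919 without NM replicate 3, and in NF vs NM it was 0.0551 without NM replicate 3.

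NAC042 (AT2G43000), also called JUNGBRUNNEN1, is a hydrogen peroxide-induced factor that delays senescence. It had 12.2, 10.4 and 16.9 CPM in HF, against 0.604, 0 and 0.0431 CPM in NM. It had 1.85, 0.151 and 0.135 CPM in HM and 13.7, 21.1 and 28.4 CPM in NF. Every flg22 sample exceeded every mock sample, and among the mock samples HM replicate 1, the library with the high flg22 markers, was the highest. NAC042 was upregulated in HF vs NM (log2FC 5.81 ± 1.08 SE, adjusted p = 0.00583 in edgeR) and in NF vs NM (6.48 ± 1.1, adjusted p = 0.00464). It overlaps AT2G42990 on the opposite strand, and the use of strand in the counting is not given in the sources used here.

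NAC036 (AT2G17040), which is known to stunt leaves and stems when overexpressed, had 11.3, 6.52 and 16.1 CPM in HF, against 0.377, 0.232 and 1.03 CPM in NM. It had 3.05, 0 and 0.720 CPM in HM and 6.99, 6.50 and 19.4 CPM in NF. The groups did not overlap in HF vs NM or NF vs NM, and HM replicate 1 was again the highest mock sample. The log2FC was 4.35 ± 1.08 (SE) in HF vs NM (adjusted p = 0.0247, edgeR) and 4.31 ± 1.07 in NF vs NM (adjusted p = 0.0343, edgeR). These calls depended on single libraries, since NAC036 remained a DEG in 7 of the 12 fits that left out 1 sample for HF vs NM (not without HF replicate 1, HF replicate 3 or any NM sample, adjusted p up to 0.0942) and in 5 of 12 for NF vs NM (not without HF replicate 1, HF replicate 3, NF replicate 2, NF replicate 3 or any NM sample, up to 0.139).

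NAC062 (AT3G49530), a membrane-tethered factor also called NTL6 and known to induce PATHOGENESIS-RELATED genes after its release, had 100, 90.6 and 114 CPM in HF, against 15.3, 13.9 and 16.8 CPM in NM. It had 72.0, 18.6 and 38.9 CPM in HM and 70.5, 67.6 and 112 CPM in NF. All 9 treated samples lay above the 3 NM samples. The log2FC was 2.73 ± 0.41 (SE) in HF vs NM (adjusted p = 0.00224, edgeR) and 2.44 ± 0.41 in NF vs NM (adjusted p = 0.00433, edgeR), and both calls held in all 12 fits that left out 1 sample. PR1, PR2, PR5 and BIP3 were listed as targets of NAC062, of which PR5 alone had enough counts to be tested, and its log2FC in HF vs NM was 0.24 (adjusted p = 0.897, edgeR).

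NAC102 (AT5G63790), the most abundant member, had 522, 464 and 393 CPM in HF, against 53.3, 77.3 and 188 CPM in NM. It had 249, 132 and 143 CPM in HM and 158, 353 and 495 CPM in NF. The HF samples lay above all NM samples, while NF replicate 1 lay within the NM range. The log2FC was 2.11 ± 0.52 (SE) in HF vs NM (adjusted p = 0.0235, edgeR), with an adjusted p of 0.0609 to 0.0973 without HF replicate 1, HF replicate 2, NM replicate 1 or NM replicate 2. In NF vs NM the log2FC of NAC102 was 1.66 ± 0.51 (adjusted p = 0.0862, edgeR) and, with the replicate number as a block, 1.71 with an adjusted p of 0.0497. Its closest relative among the members was NAC032, a factor of the same clade with 58.5% identity. NAC032 had a log2FC of 0.61 in HF vs NM and was not a DEG. ATAF2, a relative of NAC102 outside the symbol rule, was not part of this comparison of proteins. It was upregulated in HF vs NM (log2FC 3.09, adjusted p = 0.00194 in edgeR). NAC102 overlaps AT5G63780 on the opposite strand, and whether reads in the overlap were told apart is not known.

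The pair NAC053 (AT3G10500) and ANAC078 (AT5G04410) shares 71.9% identity, is membrane-tethered and is known to activate proteasome genes under proteasome stress. NAC053 had 33.8, 44.1 and 32.2 CPM in HF, against 16.1, 12.1 and 20.2 CPM in NM, a log2FC of 1.19 ± 0.26 (SE, adjusted p = 0.0135 in edgeR). ANAC078 had 65.3, 97.5 and 78.1 CPM in HF, against 43.6, 48.9 and 50.8 CPM in NM, a log2FC of 0.75 ± 0.19 (adjusted p = 0.0248). Neither was a DEG in HM vs NM or NF vs NM, where NAC053 differed by 0.33 and 0.88 and ANAC078 by 0.31 and 0.49 on the log2 scale. With library size scaling neither remained a DEG in HF vs NM (NAC053 0.89, adjusted p = 0.0529, and ANAC078 0.46, adjusted p = 0.0475). The adjusted p of ANAC078 was 0.0677 to 0.101 when HF replicate 2, HF replicate 3 or any of the NM samples was left out, and that of NAC053 was 0.0566 without HF replicate 2 and 0.0584 without NM replicate 2. ANAC078 overlaps AT5G00965 and AT5G04420 on the opposite strand.

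ANAC087 (AT5G18270), known from programmed cell death in the root cap together with its relative NAC046, had 16.9, 13.8 and 19.6 CPM in HF, against 7.92, 5.81 and 6.64 CPM in NM. It had 18.7, 8.38 and 14.3 CPM in HM and 12.2, 6.13 and 14.3 CPM in NF. HM samples, too, all lay above the NM samples. The log2FC in HF vs NM was 1.30 ± 0.35 (SE, adjusted p = 0.035 in edgeR), but it was not a DEG in 7 of the 12 fits that left out a sample (without any of the HF or NM samples, or HM replicate 3, adjusted p 0.0533 to 0.124) nor with library size scaling (adjusted p = 0.125). NAC046, with 69.0% identity to it, differed by 0.33 and was not a DEG.

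NAC083 (AT5G13180), also called VNI2, represses vessel formation and extends leaf life. It was the only member downregulated in HF vs NM, with 19.6, 31.2 and 28.8 CPM in HF, against 71.5, 80.8 and 81.2 CPM in NM. It had 28.2, 45.5 and 40.1 CPM in HM and 56.9, 54.7 and 30.7 CPM in NF. All 9 treated samples lay below the 3 NM samples. The log2FC was -1.55 ± 0.27 (SE, adjusted p = 0.0044 in edgeR) in HF vs NM, and this call held in all 12 fits that left out a sample. It was -1.04 ± 0.27 in HM vs NM and -0.71 ± 0.27 in NF vs NM, which were not DEGs (adjusted p = 0.457 and 0.178, edgeR). Its closest relative among the members, NAC041 with 55.2% identity, had a log2FC of 0.38 in HF vs NM and was not a DEG. NAC083 overlaps AT5G00390 on the opposite strand.

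To separate the peptide from hypoxia, NF was compared with NM. A total of 5 members (9.43%) were DEGs, against 7.07% of all genes tested, and 3 of 51 (5.88%) without NAC061 and NAC090. They were NAC061, NAC042, NAC090, NAC036 and NAC062, all upregulated (6.43% of all genes were upregulated and 0.638% downregulated). NAC061, NAC042 and NAC062 remained DEGs in all 12 fits that left out a sample, and NAC090 in 11. The same-numbered NF and NM samples deviated together, and with the replicate number as a block 8 members were DEGs (11.5% of all genes). These 8 were the same 5 with NAC102 (log2FC 1.71, adjusted p = 0.0497), and the downregulated ANAC092 (-1.20, adjusted p = 0.0447) and NAC089 (-1.01, adjusted p = 0.0385). ANAC092, or ORE1, promotes leaf senescence, and NAC089 is a membrane-tethered factor known from cell death under ER stress. DESeq2 called 8 members on all 12 samples (9.14% of all genes) and 8 on the 2 groups alone (8.91%). The NF and NM samples did not overlap for 12 members (22.6%, against 21.6% of all genes).

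Hypoxia alone was assessed with HM vs NM, where 0 of 53 members and 0.0% of all genes were DEGs in edgeR's fit. The hypoxia markers LBD41 (log2FC 4.99, adjusted p = 0.0578), PDC1 (6.3, adjusted p = 0.159) and ADH1 (3.31, adjusted p = 0.194) were not DEGs in this fit either. A count of 0 therefore does not show that the members were unchanged. A total of 4 members (7.55%) had an unadjusted p under 0.05 in edgeR, against 5.93% of all genes. The smallest p belonged to NAC083 (log2FC -1.04 ± 0.27 SE, adjusted p = 0.457), NAC062 (1.49 ± 0.40, adjusted p = 0.479) and ANAC087 (1.02 ± 0.34, adjusted p = 0.656). DESeq2 on all 12 samples called 2 members, NAC062 (log2FC 1.5, adjusted p = 0.0397) and NAC083 (-1.03, adjusted p = 0.049), against 0.841% of all genes. DESeq2 on the 2 groups alone called NAC083 only (adjusted p = 0.0091, against 0.802% of all genes), edgeR with the replicate number as a block called 0 members (0.0648% of all genes), and DESeq2 with that block called 3 (2.01% of all genes). Without HM replicate 1 edgeR again called 0 members, and the log2FC of NAC042 changed sign to -0.67 (1.63 with it) and that of NAC036 to -0.56 (1.2 with it), and without HM replicate 2 it called NAC062 (adjusted p = 0.0355). The HM and NM samples did not overlap for 10 members (18.9%, against 10.3% of all genes), 7 of them higher in HM (13.2%, against 5.54%) and 3 lower (5.66%, against 4.75%).

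Whether flg22 acted on the members under hypoxia was read from HF vs HM. A total of 3 members (5.66%) were DEGs, against 4.38% of all genes tested, and 1 of 51 (1.96%) without NAC061 and NAC090. All were upregulated (3.84% of all genes were upregulated and 0.543% downregulated). They were NAC061, NAC042 (log2FC 4.18 ± 0.96 SE, adjusted p = 0.0371 in edgeR) and NAC090 (4.37 ± 1.03, adjusted p = 0.0408). Without HM replicate 1 a total of 7 members were DEGs (7.53% of all genes). They were NAC061, NAC042 (6.48, adjusted p = 0.0036), NAC090 (6.04, adjusted p = 0.0201), NAC036 (4.91, adjusted p = 0.0212), NAC062 (1.82, adjusted p = 0.00893), NAC053 (1.09, adjusted p = 0.0381) and, downregulated, NAC089 (-1.61, adjusted p = 0.0482). The count was 1 without HF replicate 1, HF replicate 2, NF replicate 2, NF replicate 3 or NM replicate 3, and 0 without HF replicate 3, HM replicate 2 or HM replicate 3. The share of all genes in these fits is not given here, so this loss was not set against that of other genes. DESeq2 called 6 members on all 12 samples (8.03% of all genes) and 6 on the 2 groups alone (6.78%). The HF and HM samples did not overlap for 12 members (22.6%, against 21.9% of all genes).

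The addition of hypoxia to flg22 was assessed with HF vs NF, where 0 members and 0.0% of all genes were DEGs in edgeR's fit. The hypoxia markers ADH1 (log2FC 4.65, adjusted p = 0.0921), LBD41 (3.91, adjusted p = 0.0977) and PDC1 (6.88, adjusted p = 0.11) were not DEGs in this fit either. DESeq2 also called 0 members on all 12 samples (0.522% of all genes) and on the 2 groups alone (0.695%), as did edgeR with the replicate number as a block (0.105%). A total of 3 members (5.66%) had an unadjusted p under 0.05 in edgeR, against 4.94% of all genes. They were NAC100, a target of the microRNA miR164 (log2FC 1.22 ± 0.38 SE, adjusted p = 0.72), NAC083 (-0.84 ± 0.27, adjusted p = 0.742) and NAC096, a factor of dehydration responses (-1.12 ± 0.48, adjusted p = 0.974). NAC100 had 3.90, 7.66 and 4.08 CPM in HF, against 1.85, 1.70 and 3.15 CPM in NF, and these groups did not overlap.

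The interaction, which is the flg22 response under hypoxia minus that under normoxia, was tested for every member. No member and 0.0% of all genes were DEGs in edgeR's fit, and DESeq2 on all 12 samples also called 0 members. A total of 2 members (3.77%) had an unadjusted p under 0.05 in edgeR, against 1.13% of all genes. They were NAC016, a factor of chlorophyll breakdown (-1.12 ± 0.47 SE, adjusted p = 1.0), and NAC062 (-1.21 ± 0.55, adjusted p = 1.0), and NAC001 had the next smallest p (-0.45 ± 0.26, adjusted p = 1.0). For NAC062 the flg22 response was 1.23 ± 0.39 on the log2 scale under hypoxia (HF vs HM) and 2.44 ± 0.41 under normoxia (NF vs NM). Without HM replicate 1 the response of NAC062 under hypoxia was 1.82 ± 0.33 and its interaction -0.63 ± 0.42 (adjusted p = 1.0, edgeR).

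Several members varied as much between replicates as between treatments. NAC047, known from upward leaf bending under waterlogging, had 7.99, 29.0 and 10.2 CPM in HF, 12.5, 92.8 and 86.0 CPM in HM and 10.0, 23.6 and 18.9 CPM in NF, against 12.3, 54.2 and 56.5 CPM in NM. Replicate 1 was the lowest sample in each of the 4 groups. ANAC092 was likewise lowest in replicate 1 of each group. It had 14.5, 25.9 and 14.8 CPM in HF, 13.4, 73.7 and 51.0 CPM in HM and 7.20, 30.8 and 19.6 CPM in NF, against 13.2, 75.3 and 50.3 CPM in NM. Replicate 1 was the lowest in all 4 groups for 10 members (18.9%, against 12.9% of all genes tested) and the highest for 1 (1.89%, against 14.7%). The root marker sum was highest and the shoot marker sum lowest in replicate 1 of each group, though not every single marker kept this order. The part of this in these values was not tested. NAC047 was not a DEG in HF vs NM (log2FC -1.38), and in HF vs HM it differed by -2.02 ± 0.79 (SE, adjusted p = 0.212 in edgeR). With the replicate number as a block edgeR called NAC047 in HF vs HM, as given at the end.

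ANAC055 and NAC019, jasmonate and abscisic acid factors with 74.1% identity, were both higher in the 3 HF samples than in the 3 NM samples without being DEGs. ANAC055 had 101, 158 and 93.5 CPM in HF, against 14.8, 51.9 and 48.1 CPM in NM (log2FC 1.62 ± 0.68 SE, adjusted p = 0.186 in edgeR). NAC019 had 7.29, 11.6 and 11.7 CPM in HF, against 1.66, 4.65 and 4.96 CPM in NM (1.44 ± 0.64, adjusted p = 0.211). Of 4 genes listed as targets of NAC019, ANAC055 and RD26 (ICS1, BSMT1, VSP1 and ERD1), 3 were tested and none was a DEG in any comparison, with log2FC of -0.13 to 0.96 in HF vs NM.

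**Figure D4:**
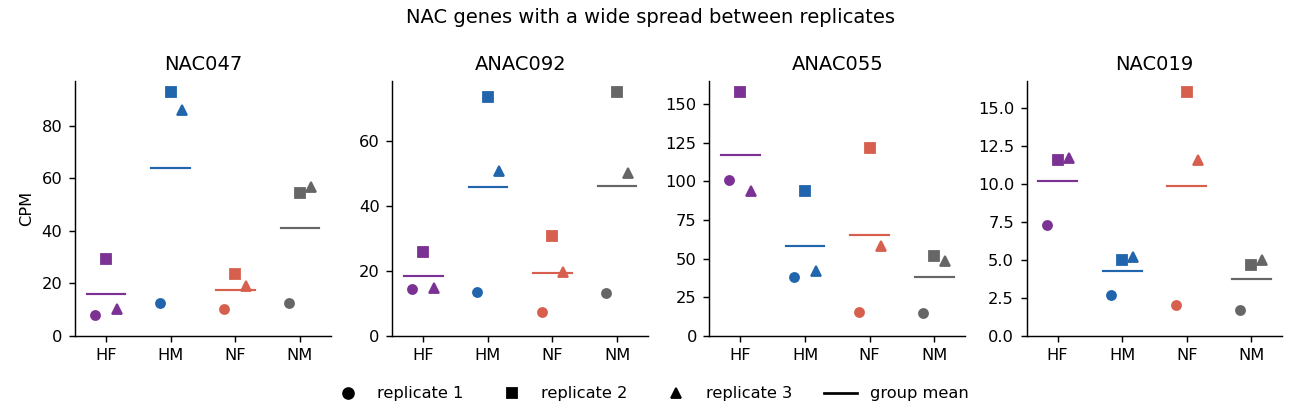
CPM of NAC047, ANAC092, ANAC055 and NAC019 in every sample, on linear axes from 0, with symbols for replicates and lines for group means. Replicate 1 is the lowest sample of each group for NAC047 and ANAC092, and the HF samples of ANAC055 and NAC019 lie above the NM samples.

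Close relatives did not always respond alike in size. The members formed 16 pairs of reciprocally closest proteins (36.4 to 84.3% identity). In HF vs NM both genes of 2 pairs were DEGs (NAC061 with NAC090, and NAC053 with ANAC078), 1 gene of 3 pairs was (NAC102, ANAC087 and NAC083), and neither gene of 11 pairs was. NAC061 and NAC090 met the count minimum only through the flg22 samples. The log2FC within a pair differed by 0.09 to 1.93, with a median of 0.45, and by the most in NAC041 and NAC083. These differences between genes were not tested. Neighbouring genes differed too, since NAC046 and NAC047 lie next to each other on chromosome 3 and had log2FC of 0.33 and -1.38 in HF vs NM. The adjacent genes NAC050, NAC052 and NAC053 had -0.08, 0.25 and 1.19, and only NAC053 was a DEG.

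**Figure D5:**
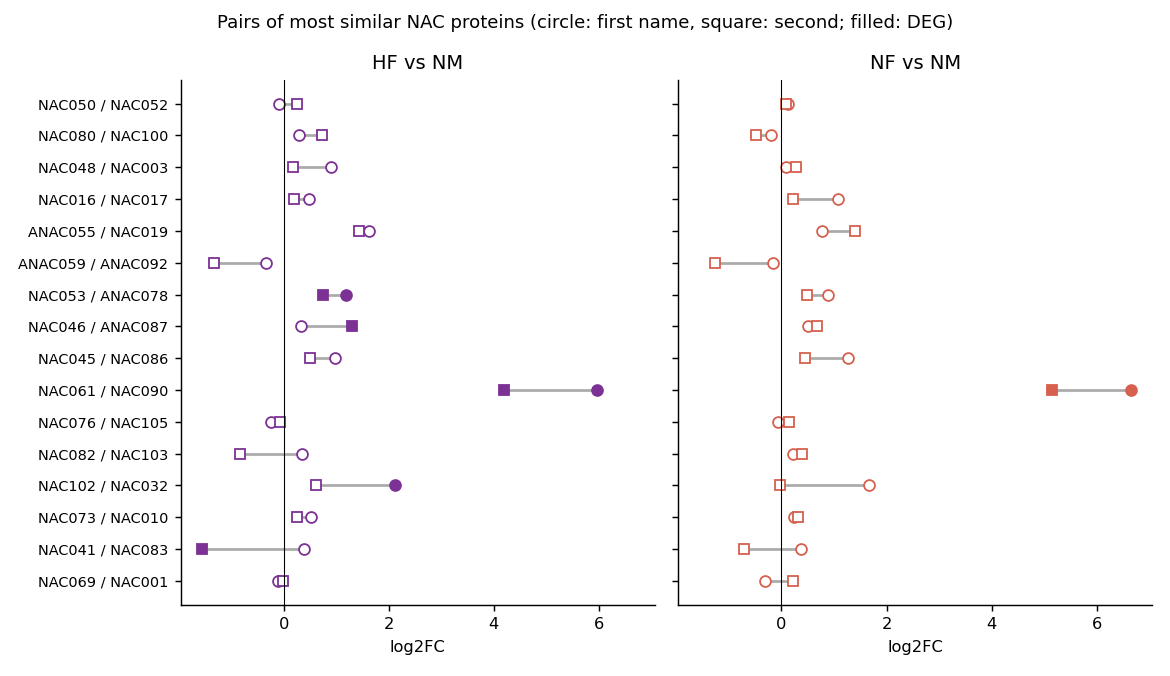
Log2FC in HF vs NM and NF vs NM for the 16 pairs of most similar NAC proteins, ordered by identity from 84.3% at the top to 36.4% at the bottom. Circles show the first gene named, squares the second, and filled symbols DEGs. NAC061 with NAC090 stands far to the right in both panels, and NAC041 and NAC083 are 1.93 apart in HF vs NM.

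The membrane-anchored class was also read from the sequences. Coding sequences translated from RefSeq TAIR10.1 held a strongly hydrophobic stretch (mean Kyte-Doolittle hydropathy of at least 1.6 over 19 residues) within the last 60 residues in 11 of 53 members. They were NAC001, ANAC013, NAC014, NAC016, NAC017, NAC028, NAC053, NAC062, NAC069, ANAC078 and NAC089. Of these 11, 3 were DEGs in HF vs NM, all upregulated, against 6 upregulated and 1 downregulated of the other 42. The 6 include NAC061 and NAC090, which met the count minimum only through the flg22 samples. Of all genes tested 7.85% were upregulated and 2.59% downregulated. NAC017, which carries mitochondrial distress signals to the nucleus, had 47.8, 62.0 and 51.8 CPM in HF, against 39.0, 54.5 and 48.2 CPM in NM, and these groups overlapped. Of 8 listed targets of ANAC013 and NAC017, 6 were tested. AOX1A, the alternative oxidase, was upregulated in HF vs NM (log2FC 2.03, adjusted p = 0.00692 in edgeR) and in NF vs NM (1.64, adjusted p = 0.0255), as was BCS1, also called OM66 (4.76, adjusted p = 0.0103, and 5.53, adjusted p = 0.00702). None of the 6 was a DEG in HM vs NM in edgeR's fit, where 1 had an unadjusted p under 0.05.

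A further 22 NAC genes in the table carry other symbols and lay outside the rule, and 18 of them were tested. In HF vs NM 3 were upregulated (AT3G12910, ATAF2 and TIP) and AT3G12977 was downregulated, against 7.85% of all genes upregulated and 2.59% downregulated. In NF vs NM the same 3 were upregulated, against 6.43% of all genes. ATAF2, a relative of NAC102, had a mean of 311 ± 49.1 CPM in HF and 36.6 ± 15.1 CPM in NM (SD, n = 3 each). AT3G12910 was the most strongly changed of them, with 97.8 ± 34.0 CPM in HF and 0.223 ± 0.227 CPM in NM (SD, n = 3 each), a log2FC of 8.68 with an adjusted p of 0.00162 in edgeR's fit.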

How the data were processed

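RNA was measured by sequencing of 12 libraries (paired-end, BGI). The authors filtered reads with SOAPnuke and aligned them with HISAT, and the submitters' processing notes also name DESeq2 and TAIR10. The counting tool, its version and its use of strand are not given in the sources used here. Whether reads in overlaps between genes were told apart is therefore not known. The deposited values are estimated counts per gene, of which 2.3% were not whole, and they were rounded. Totals were nearly equal between samples, and counting error was small beside the spread between replicates. Counts were scaled by TMM and filtered with filterByExpr (minimum count 10), which left 20074 of 23396 genes, and edgeR 4.0.16 (R 4.3.3) fitted all 12 samples in 4 groups with glmQLFit and glmQLFTest. The biological coefficient of variation was 0.362. Log2FC came from the edgeR fit at its default prior count. SE was the absolute log2FC divided by the square root of the quasi-likelihood F. Benjamini-Hochberg adjustment covered all genes tested in each of 6 comparisons. A prior count of 2 was used only for the log CPM behind the correlations of deviations given below. The fit was also run on simulated counts that held no effect of the replicate number, and its outcome there is not given here. Alternatives were DESeq2 1.42.0, other scalings and filters, fits of 2 groups, the replicate number as a block, and omission of each sample.

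The replicate numbers were taken to pair the samples where every same-numbered pair deviated together, which held for HM vs NM and NF vs NM. The main edgeR fit had no term for the replicate number, so its calls and p-values do not use this pairing. Fits with the replicate block were alternatives. The correlations of deviations from the group means were 0.68, 0.60 and 0.26 for HM and NM and 0.77, 0.50 and 0.31 for NF and NM. The members and lists were chosen with earlier results of these data known. Genes given in full were the DEGs of HF vs NM, those of any other comparison, the 3 smallest p-values where fewer than 3 were called, and the 5 most abundant members. NAC047, ANAC092, NAC019, NAC017 and the paired and adjacent genes were chosen after their values were seen. Promoter and coding sequences came from RefSeq TAIR10.1, and 1 promoter among the DEGs of NF vs NM is not reported here. Proteins were compared by translation of these coding sequences.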

Additional observations from a re-analysis of the deposited data

How the results depend on the processing

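No DEG changed direction, in the comparison that called it, under the alternatives run. The medians of the members in HF vs NM and HF vs HM changed sign with library size scaling, and NAC042 and NAC036, which were not DEGs in HM vs NM, changed sign there without HM replicate 1. Against 10 DEGs among the members in HF vs NM, DESeq2 with the replicate block called 16 (18.6% of all genes). A minimum of 10 counts in every sample left 6, and omission of single samples gave 5 to 10. In every comparison that minimum removed NAC036, NAC042, NAC061 and NAC090 before the test, since each had samples with under 10 counts. Their absence under it was therefore fixed in advance and is not a failed test. In HM vs NM (0 in edgeR) DESeq2 called 2 on all samples, 1 on the 2 groups and 3 with the block, and omission gave 0 to 1. In NF vs NM (5) DESeq2 called 8 on all samples (9.14% of all genes), 8 on the 2 groups (8.91%) and 12 with the replicate block (13.5%). There edgeR with the block called 8 (11.5%), the minimum of 10 counts in every sample left 1, and omission gave 4 to 7. In HF vs HM (3) DESeq2 called 6 on all samples (8.03% of all genes), 6 on the 2 groups (6.78%) and 12 with the block (13.8%). There edgeR called 7 with the block (9.54%) and 1 on the 2 groups, the strict minimum left 0, and omission gave 0 to 7. HF vs NF and the interaction stayed at 0 in each alternative run. For the strict minimum, edgeR on the 2 groups and omission of samples other than HM replicate 1, the share of all genes is not given here. Those counts therefore describe the members alone and do not set them apart from other genes. For single genes, 211 values kept their side of the threshold, 6 passed it and 8 lost it, and with omission of a sample 270 kept it, 1 passed it and 53 lost it. The causes were not tested.

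For HF vs NM, HF vs NF and HF vs HM not every same-numbered pair deviated together. The correlations of deviations in the third pair were -0.01, -0.11 and -0.05. In the first and second pairs they were 0.52 and 0.58 for HF and NM, and 0.54 and 0.51 for HF and NF. For HF and HM they were 0.46 and 0.42. In edgeR with the replicate block 13 members were DEGs in HF vs NM (16.7% of all genes), and NAC019, NAC048 and ANAC055 were added. In HF vs HM that block made NAC047 a DEG (log2FC -1.81, adjusted p = 0.0253, edgeR). Scaling by library size only moved the median log2FC of all genes to -0.11 in HM vs NM, -0.17 in NF vs NM, -0.14 in HF vs NF and -0.17 in HF vs HM, where the members' median changed sign to -0.01. It called 6 members up and 2 down in HF vs NM, and the share of all genes it called is not given here. NAC061 rested on at most 1 count per NM library, which limits its ratio.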
